A study of Homo sapiens with 9 samples.

Results

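The desmosome genes DSC2, DSG2, DSP, JUP, PKP2, PKP3, PPL and EVPL were examined in RNA-seq libraries of HCT116, a long-established line from a human colorectal carcinoma. They were taken from a deposited table of 15354 rows by matching the Ensembl gene identifier of each row to these 8 symbols. All 8 had a row and were among the 13893 genes with enough reads to be tested. The set was put together because DSC2 was higher by over 3-fold with both siRNAs. The values of DSC2 against control and between the siRNAs are therefore a description here, with no test. The next member by size of increase was DSG2, at 1.66-fold with siRNA A and 1.36-fold with siRNA B, against 4.6-fold and 3.54-fold for DSC2. Cells received 25 nM of an siRNA, either a commercial non-targeting one (control) or 1 of a pair directed at SNHG5, named siRNA A and siRNA B, and RNA was taken 36 h later. SNHG5 is a long non-coding RNA that hosts small nucleolar RNAs in its introns. Each group had 3 libraries. No other agent or allele was listed on the labels, and all groups shared the same line, which is a single tumour cell line and not a tissue. The labels do not tie siRNA A and siRNA B to the names used in the study.

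Desmosomes are the spot-like junctions that hold neighbouring epithelial cells together and tie their keratin filaments to the membrane. Desmogleins (DSG) and desmocollins (DSC) are cadherins that cross the membrane and bind those of the next cell. Inside the cell the armadillo proteins plakoglobin (JUP) and the plakophilins (PKP) bind the cadherin tails, and desmoplakin (DSP) links them to keratin. Periplakin (PPL) and envoplakin (EVPL) are further plakins, best known from the cornified envelope of stratified epithelia. DSG2 and DSC2 are the desmosomal cadherins of simple epithelia such as that of the intestine.

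The promoters of the cadherins DSC2 and DSG2 are shown because these were the members with the largest increases with siRNA A. RefSeq windows on GRCh38.p14 were given for 4 of the 8 members, with 2 start sites each for DSC2 and JUP and 1 each for DSG2 and DSP, and none was matched for PKP2, PKP3, PPL and EVPL. The 250 bases before each start are printed 5′ to 3′ on the strand of the gene. Capitals mark the E-box CAGGTG, which repressors of the SNAI and ZEB families are known to bind, and the GC box GGGCGG, in either orientation. The windows are chr18:31102422-31102671 (minus strand) for the upstream start of DSC2, chr18:31101261-31101510 (minus strand) for its downstream start, and chr18:31497927-31498176 (plus strand) for DSG2.
DSC2 upstream start: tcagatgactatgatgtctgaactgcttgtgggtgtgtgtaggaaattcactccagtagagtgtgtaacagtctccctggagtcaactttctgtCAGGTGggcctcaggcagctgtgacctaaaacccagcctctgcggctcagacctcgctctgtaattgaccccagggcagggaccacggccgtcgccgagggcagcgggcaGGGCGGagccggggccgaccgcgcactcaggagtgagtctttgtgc
DSC2 downstream start: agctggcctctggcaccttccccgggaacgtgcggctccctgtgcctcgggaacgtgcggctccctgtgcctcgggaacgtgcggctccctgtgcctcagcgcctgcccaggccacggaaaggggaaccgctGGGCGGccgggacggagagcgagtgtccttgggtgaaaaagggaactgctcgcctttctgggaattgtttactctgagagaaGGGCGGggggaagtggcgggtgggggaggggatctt
DSG2 start: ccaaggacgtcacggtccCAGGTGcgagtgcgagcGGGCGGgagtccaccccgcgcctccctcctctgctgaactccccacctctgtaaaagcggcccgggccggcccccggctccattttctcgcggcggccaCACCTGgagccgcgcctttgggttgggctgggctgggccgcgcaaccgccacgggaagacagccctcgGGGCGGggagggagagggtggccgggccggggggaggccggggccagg
The starts of DSC2 lie 1161 bases apart. The upstream window held an E-box beginning 156 bases before the start and a GC box at 46 bases, and the downstream window held GC boxes at 118 and 36 bases and no E-box. The DSG2 window held E-boxes at 232 and 116 bases and GC boxes at 215 and 48 bases. G and C made up 59.6% and 66.8% of the DSC2 windows and 75.2% of that of DSG2, against a median of 58.0% over all promoters. An E-box was found in 4 of the 6 windows of members and in 17.5% of 35114 promoter windows of the same length. A GC box was found in 5 of the 6 and in 42.6% of all. No member window held the grainyhead motif AACCGGTT (0.117% of all windows), the CDX motifs TTTATTG (3.67%) and TTTATGG (2.3%), the AP-1 motif TGANTCA (6.57%) or the TATA box TATAAA (10.7%). These are matches of letters and not measured sites.

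The libraries held 15566530 to 23277549 reads, and the second replicates of siRNA A and siRNA B were the smallest of the 9. SNHG5, the targeted gene, was examined first. It stood at 31.3, 22.1 and 25.9 CPM (reads relative to library size, as deposited, then scaled by TMM, the trimmed mean of M values) in control, against 71.5, 58.8 and 67.3 CPM in siRNA A and 46.2, 50.3 and 46.1 CPM in siRNA B. Each of the 6 libraries labelled as knock-downs thus held more SNHG5 than any control library, with a log2 difference of 1.29 (± 0.13 SE, adjusted p = 1.86e-05 by limma) and 0.83 (± 0.13 SE, adjusted p = 5.90e-04 by limma), which goes against the labels. In the annotation used here, SNHG5 shares exonic bases on the same strand with the pseudogene PKMP3 and an unnamed protein-coding gene, neither of which has a row here. Whether its reads were counted over the same exons was not examined. Given these SNHG5 levels, the group names below are those of the labels only. All 7 epithelial markers had a row (EPCAM, CDH1, KRT8, KRT18, KRT19, VIL1 and CDX2), with a summed level of 2095 to 2183 deposited CPM in control, 2805 to 3441 in siRNA A and 2393 to 2452 in siRNA B. The markers did not all move the same way. With siRNA A the keratins KRT8, KRT18 and KRT19 rose, by 1.06, 1.01 and 1.09 on the log2 scale, while EPCAM fell by 0.55 (adjusted p = 0.00121 by limma) and CDX2 by 0.52 (adjusted p = 0.00413 by limma), and with siRNA B 2 of the list rose and 1 fell. Of 6 fibroblast markers 4 had a row, with sums of 18.5 to 19.7, 9.44 to 12.4 and 8.59 to 9.45 deposited CPM in control, siRNA A and siRNA B. Nearly all of this was COL1A1, at 18.3 to 19.5, 9.44 to 12.3 and 8.55 to 9.40 deposited CPM, while LUM was at 0 in every library and COL3A1 and PDGFRB were at or below 0.143 and 0.337. The single leukocyte marker with a row, CD14, stayed at or below 0.556 deposited CPM. KRT10 was the 1 of 6 keratinocyte markers with a row, at 20.6 to 32.4 deposited CPM, and the endothelial markers PECAM1, VWF and CDH5 were not analysed here. The part of these shifts in the results below was not tested. In RNA from whole cultures, fewer cells of a kind and less RNA per cell cannot be told apart.

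With siRNA A, 2 of the 7 members other than DSC2 rose (DSG2 and DSP) and 3 fell (PKP3, PPL and EVPL), while JUP and PKP2 did not pass the test (limma, Benjamini-Hochberg adjusted p under 0.05). Over all 13893 genes 23.9% rose and 27.6% fell in that comparison. With the replicate number as a block, PKP2 passed as higher with siRNA A (adjusted p = 0.0322 by limma). With siRNA B none of the 7 passed in limma, where 15.6% of all genes rose and 18.3% fell. At an unadjusted p under 0.05, 2 members were higher (DSG2 and DSP) and 3 lower (PKP2, PPL and EVPL) with siRNA B, where 21.3% of all genes were higher and 23.2% lower. The edgeR and DESeq2 tests on the recovered reads each called 1 higher, DSP, and 1 lower, EVPL, where edgeR called 16.0% of all genes higher and 18.4% lower and DESeq2 17.8% and 18.5%. In limma with the replicate number as a block, 2 passed as higher (DSG2 and DSP) and 3 as lower (PKP2, PPL and EVPL), where 19.9% and 21.8% of all genes did. The replicate numbers do not pair siRNA B with the other groups. The median log2 change of the 7 was -0.28 with siRNA A and -0.19 with siRNA B, against -0.02 and 0.0043 over all genes. The 3 libraries of siRNA A lay wholly above those of control for DSG2 and DSP and wholly below for PKP3, PPL and EVPL, so 5 of the 7 did not overlap, where 59.5% of all genes did not. With siRNA B this held for 2 of the 7, PPL and EVPL, both below control, where the share over all genes was 47.6%. Both comparisons share the control libraries. Higher by over 3-fold with both siRNAs was found for 0.0792% of the genes (11 of 13893), the group from which DSC2 was chosen.

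**Figure D1:**
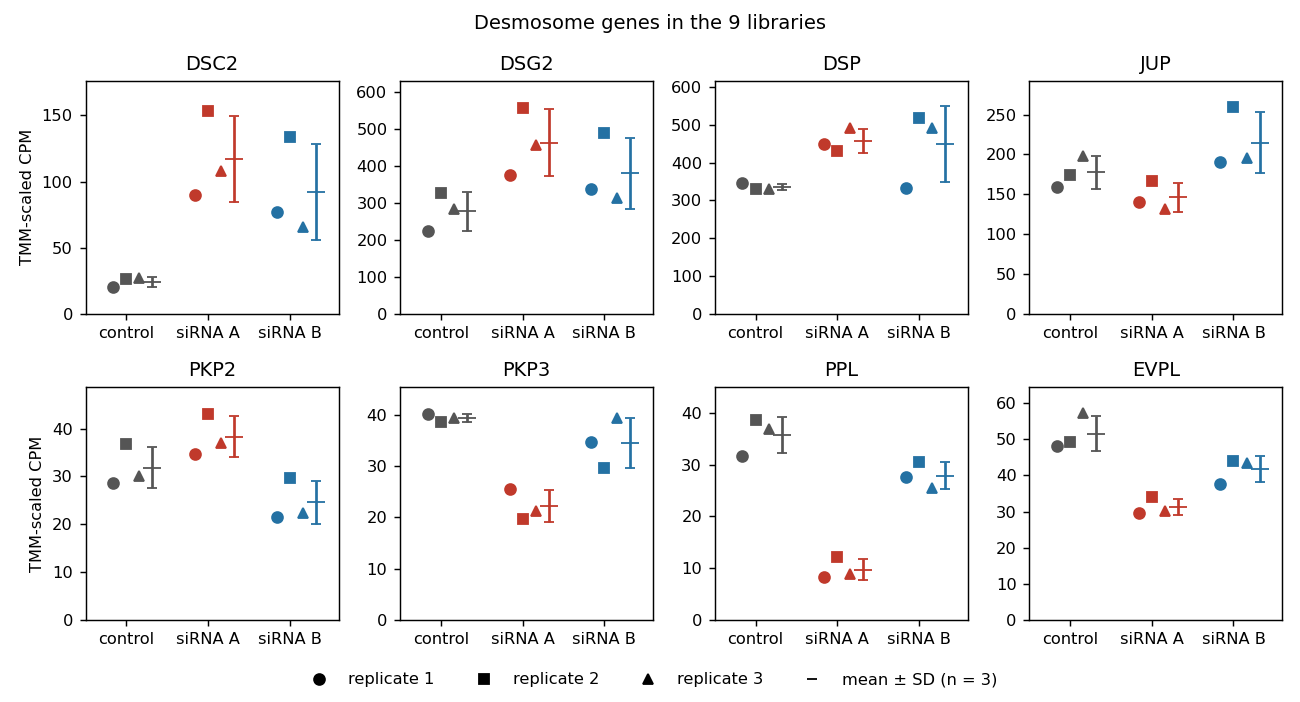
Level of each desmosome gene (vertical axis, TMM-scaled CPM, from 0) in the 3 libraries of control, siRNA A and siRNA B, with symbols for the replicate number and a bar for mean ± SD (n = 3). All 6 siRNA libraries lie above control for DSC2, whereas PPL is at 8.29 to 12.1 CPM in siRNA A and at 25.5 to 30.5 CPM in siRNA B.

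DSC2 (desmocollin 2, ENSG00000134755.10) spans 28638806 to 28682485 of chromosome 18 (GRCh37, minus strand), and its longest transcript has 17 exons. It stood at 19.9, 26.3 and 26.7 CPM in control, at 90.1, 153 and 108 CPM in siRNA A and at 76.9, 134 and 65.5 CPM in siRNA B, from 499 to 2072 reads per library. Every siRNA library was above every control library, and the second replicate was the highest in both siRNA groups. Control averaged 24.3 ± 3.81 CPM, siRNA A 117 ± 32.6 CPM and siRNA B 92.1 ± 36.6 CPM (SD over 3 libraries), a log2 difference from control of 2.20 and 1.82. The choice of the set used the libraries of both siRNAs, so the difference between the siRNAs is also given with no test. It was 0.38 (± 0.25 SE). It was 0.68 without the second replicate of siRNA B, and 0.17 without the second replicate of siRNA A or the third of siRNA B. The 3′ end of DSC2 shares exonic bases on the same strand with the lincRNA RP11-408H20.1, whose own row averaged 0.890 deposited CPM in control, so the counting could have split reads there.

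DSG2 (desmoglein 2, ENSG00000046604.8) lies on the same chromosome from 29078140 to 29128971 on the plus strand. Its levels were 223, 327 and 282 CPM in control, 375, 556 and 456 CPM in siRNA A, and 336, 490 and 313 CPM in siRNA B. All siRNA A libraries were above control, and those of siRNA B overlapped control at their lower end. DSG2 rose with siRNA A by a log2 fold change of 0.73 (± 0.20 SE, adjusted p = 0.00838 by limma). With siRNA B the value was 0.44 (± 0.20 SE, 95% interval 0.01 to 0.87, adjusted p = 0.103 by limma). The siRNAs differed by 0.29 (95% interval -0.14 to 0.72, adjusted p = 0.262 by limma). With library totals alone in place of TMM the siRNA A value dropped to 0.37 (adjusted p = 0.107 by limma). DSG2 overlaps the exons of the antisense gene DSG2-AS1, which has a row of its own, and the use of strand in counting was not given in the sources used here.

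DSC2 and DSG2 belong to a cluster of 7 desmosomal cadherin genes that spans 560 kb from DSC3 to DSG2. Rows for 3 of them, DSC3, DSC2 and DSG2, were analysed. DSC1, DSG1, DSG3 and DSG4, known from skin, were not analysed here, nor were PKP1 and CDSN. DSC3 (desmocollin 3) stood at 23.0, 27.8 and 29.3 CPM in control, at 50.5, 62.7 and 60.6 CPM in siRNA A and at 38.2, 50.7 and 34.4 CPM in siRNA B, with all siRNA libraries above control. It rose with both siRNAs, by 1.09 (± 0.15 SE, adjusted p = 1.49e-04 by limma) and 0.59 (± 0.15 SE, adjusted p = 0.0112 by limma). The rise of DSC3 was larger with siRNA A by 0.50 (adjusted p = 0.0233 by limma). With totals alone the siRNA B value of DSC3 was 0.38 (adjusted p = 0.0586 by limma) and the difference between siRNAs 0.35 (adjusted p = 0.0842 by limma), and the latter lost its call without replicate 2 or 3 of siRNA A or replicate 1 or 3 of siRNA B (0.38 to 0.46, adjusted p = 0.0727 to 0.0910 by limma).

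JUP (plakoglobin, ENSG00000173801.12) spans 39910856 to 39943183 of chromosome 17 (minus strand) and is shared by desmosomes and adherens junctions. It stood at 159, 175 and 199 CPM in control, at 141, 167 and 131 CPM in siRNA A and at 190, 259 and 196 CPM in siRNA B. Each siRNA group overlapped control, on the lower side for A and on the upper side for B, and the siRNA groups did not overlap each other. The change against control was -0.28 with siRNA A (± 0.14 SE, 95% interval -0.59 to 0.03, adjusted p = 0.117 by limma) and 0.27 with siRNA B (± 0.14 SE, 95% interval -0.04 to 0.58, adjusted p = 0.165 by limma). The difference between the siRNAs passed the test, at -0.55 for A minus B (± 0.14 SE, adjusted p = 0.0104 by limma). Of the 7 members other than DSC2, 1 was higher in siRNA A than in siRNA B by this test (PKP2) and 4 were lower (JUP, PKP3, PPL and EVPL), where 17.6% and 19.5% of all genes were. With the replicate number as a block DSG2 was higher as well, making 2, where 21.5% of all genes were higher. The same 5 members were those whose siRNA libraries did not overlap each other, where 47.6% of all genes did not. With totals alone JUP fell with siRNA A, by 0.65 on the log2 scale (adjusted p = 7.90e-04 by limma).

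PKP2 (plakophilin 2, ENSG00000057294.9; chromosome 12, 32943679 to 33049732, minus strand) is the widely expressed plakophilin that recruits desmoplakin to the membrane. It stood at 28.6, 36.7 and 30.01 CPM in control, at 34.7, 43.1 and 37.03 CPM in siRNA A and at 21.6, 29.8 and 22.4 CPM in siRNA B. Within each group the second replicate was the highest, and siRNA A lay wholly above siRNA B. The change was 0.26 with siRNA A (± 0.15 SE, 95% interval -0.05 to 0.58, adjusted p = 0.15 by limma) and -0.36 with siRNA B (± 0.15 SE, 95% interval -0.68 to -0.05, adjusted p = 0.0738 by limma). With the replicate number as a block the siRNA A value passed (adjusted p = 0.0322 by limma), and with totals alone it turned to -0.10 (adjusted p = 0.599 by limma). The siRNA B value passed with totals alone (-0.57, adjusted p = 0.00809 by limma) and without the second replicate of siRNA B (-0.50, adjusted p = 0.0163 by limma). The log2 difference between the siRNAs was 0.63 (± 0.15 SE, adjusted p = 0.00603 by limma). PKP2 shares exonic bases with an unnamed long non-coding RNA on the same strand that has no row here.

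PKP3 (plakophilin 3, ENSG00000184363.5; chromosome 11, 392614 to 404908, plus strand) is a plakophilin of simple and stratified epithelia. It stood at 40.2, 38.6 and 39.3 CPM in control, at 25.6, 19.7 and 21.3 CPM in siRNA A and at 34.7, 29.6 and 39.4 CPM in siRNA B. The control libraries lay close together, with an SD of 0.797 CPM, and all siRNA A libraries were below them. PKP3 fell by 0.81 on the log2 scale with siRNA A (± 0.13 SE, adjusted p = 3.36e-04 by limma). With siRNA B it was at -0.19 (± 0.13 SE, 95% interval -0.47 to 0.09, adjusted p = 0.271 by limma), or -0.40 with totals alone (adjusted p = 0.0448 by limma). The log2 difference between the siRNAs was -0.62 (± 0.13 SE, adjusted p = 0.00328 by limma). PKP4, a related armadillo protein found mostly at adherens junctions, stood at 81.4 to 102 CPM in control, 42.0 to 52.2 CPM in siRNA A and 81.5 to 97.5 CPM in siRNA B. PKP4 fell, by a log2 change of -0.999 with siRNA A (± 0.12 SE, adjusted p = 6.15e-05 by limma), was at -0.08 with siRNA B (adjusted p = 0.651 by limma), and differed between the siRNAs by -0.92 (± 0.12 SE, adjusted p = 2.00e-04 by limma). PKP4 overlaps exons of PKP4-AS1 on the other strand.

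DSP (desmoplakin, ENSG00000096696.9; chromosome 6, 7541571 to 7586947, plus strand) stood at 345, 331 and 329 CPM in control, at 450, 430 and 492 CPM in siRNA A and at 333, 519 and 493 CPM in siRNA B. All siRNA A libraries were above control. The first replicate of siRNA B was within the control range and the other two were above it. DSP rose with siRNA A by 0.45 (± 0.15 SE, adjusted p = 0.0258 by limma), with 0.39 for siRNA B (± 0.15 SE, 95% interval 0.07 to 0.72, adjusted p = 0.0614 by limma). Its call with siRNA A was lost without control replicate 2 or 3 or siRNA A replicate 1 or 3 (0.39 to 0.46, adjusted p = 0.0525 to 0.0862 by limma) and with totals alone (0.08, adjusted p = 0.660 by limma). Without the first replicate of siRNA B the siRNA B value was 0.59 (adjusted p = 0.00454 by limma). The siRNAs differed by 0.05 (95% interval -0.27 to 0.38, adjusted p = 0.809 by limma). DSP overlaps exons of DSP-AS1 on the other strand.

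PPL (periplakin, ENSG00000118898.10; chromosome 16, 4932508 to 5010742, minus strand) had the largest decrease of the 8 with siRNA A. It stood at 31.7, 38.6 and 36.9 CPM in control, at 8.29, 12.1 and 8.79 CPM in siRNA A and at 27.7, 30.5 and 25.5 CPM in siRNA B, from 156 to 889 reads. Both siRNA groups were wholly below control, and siRNA A was wholly below siRNA B. PPL fell by 1.79 on the log2 scale with siRNA A (± 0.14 SE, adjusted p = 5.07e-06 by limma). With siRNA B the value was -0.35 (± 0.14 SE, 95% interval -0.66 to -0.03, adjusted p = 0.0847 by limma), -0.55 with totals alone (adjusted p = 0.00892 by limma), and at -0.35 also without the second replicate of siRNA A (adjusted p = 0.0382 by limma). The log2 difference between the siRNAs was -1.44 (± 0.14 SE, adjusted p = 4.37e-05 by limma). The other-strand gene SEC14L5 overlaps PPL outside exons.

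EVPL (envoplakin, ENSG00000167880.3; chromosome 17, 74000583 to 74023387, minus strand), which pairs with periplakin, stood at 48.3, 49.4 and 57.2 CPM in control, at 29.7, 33.9 and 30.2 CPM in siRNA A and at 37.6, 43.97 and 43.6 CPM in siRNA B. The 3 groups did not overlap, with control highest and siRNA A lowest. EVPL fell by 0.70 with siRNA A (± 0.11 SE, adjusted p = 3.12e-04 by limma), and was at -0.30 with siRNA B (± 0.11 SE, 95% interval -0.54 to -0.06, adjusted p = 0.0539 by limma). The siRNA B value passed in edgeR (adjusted p = 0.0498) and DESeq2 (adjusted p = 0.0471), and in limma with totals alone (-0.51, adjusted p = 0.00265), with a filter at 5 CPM (-0.31, adjusted p = 0.0399) and without the second replicate of siRNA A (-0.30, adjusted p = 0.0490). The log2 difference between the siRNAs was -0.40 (± 0.11 SE, adjusted p = 0.0139 by limma), and by -0.37 without the first replicate of siRNA A (adjusted p = 0.0507 by limma). CDK3 and its read-through with TEN1 overlap EVPL on the other strand outside exons.

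**Figure D2:**
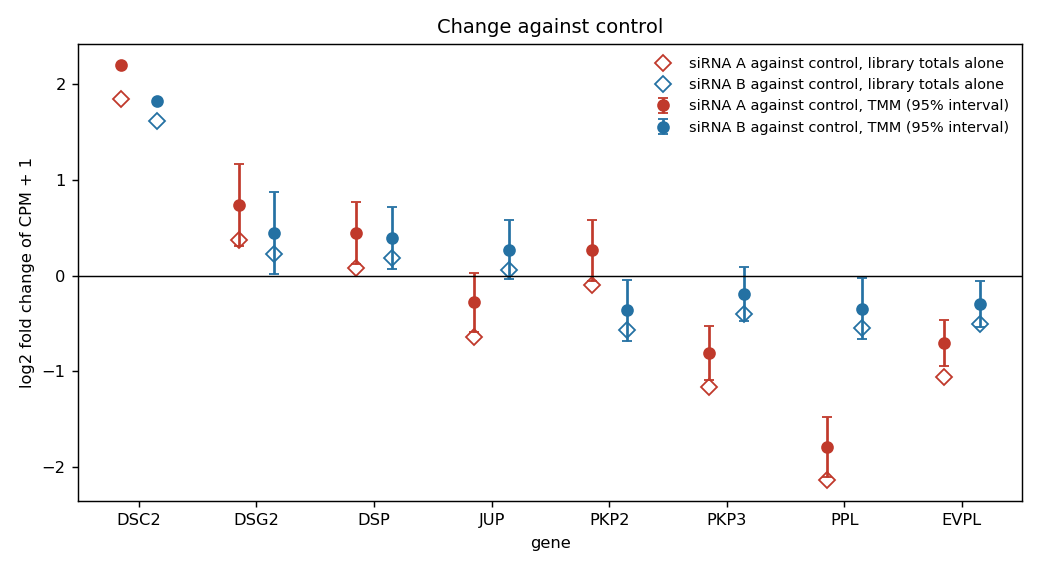
Log2 fold change of CPM + 1 against control (vertical axis) for each gene, red for siRNA A and blue for siRNA B, with filled points for TMM scaling, bars for the 95% interval from limma (not drawn for DSC2, which was chosen on these values) and open diamonds for library totals alone. PPL, PKP3 and EVPL stay below 0 with siRNA A under both scalings, and PKP2 changes side, from 0.26 to -0.10.

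PERP, a small membrane protein of desmosomes, completed the set of other desmosomal genes with a row. It stood at 126, 135 and 137 CPM in control, at 148, 208 and 155 CPM in siRNA A and at 123, 175 and 123 CPM in siRNA B. The siRNA A libraries were above control and those of siRNA B overlapped it. The change was 0.34 with siRNA A (± 0.16 SE, adjusted p = 0.0855 by limma), which passed with the replicate number as a block (adjusted p = 0.0184 by limma) and without the second replicate of siRNA B (0.34, adjusted p = 0.0337 by limma), and 0.06 with siRNA B (± 0.16 SE, adjusted p = 0.80 by limma). With totals alone both turned, to -0.02 and -0.15 (adjusted p = 0.902 and 0.432 by limma), and the siRNA B value was -0.11 without its second replicate (adjusted p = 0.590 by limma).

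Levels of different genes were compared per length, as deposited CPM per kb of annotated exon. In control the order was JUP (41.0 ± 4.06), DSG2 (33.5 ± 7.21), DSP (28.2 ± 1.30), PKP3 (11.9 ± 0.387), EVPL (8.01 ± 0.556), PPL (5.32 ± 0.645), PKP2 (3.55 ± 0.613) and DSC2 (2.22 ± 0.366; SD, n = 3 each). The libraries of JUP and DSG2 overlapped, as did those of DSG2 and DSP, while each later neighbour lay wholly below the one before. DSC2 was thus the lowest of the 8 per length in control, with the exon lengths used here (12501 bases for DSC2). With siRNA A it stood at 8.26 ± 2.02 per kb, above PKP3 at 5.18 ± 0.813, EVPL at 3.76 ± 0.154, PKP2 at 3.29 ± 0.271 and PPL at 1.11 ± 0.196. With siRNA B it stood at 7.22 ± 2.61, between PKP3 at 9.002 ± 1.44 and EVPL at 5.58 ± 0.264. With the longest annotated transcript in place of all exons the control values were 57.8 per kb for JUP, 55.8 for DSG2, 39.5 for DSP, 16.0 for PKP3, 8.95 for EVPL, 8.36 for PKP2, 6.55 for PPL and 2.25 for DSC2, so PKP2 and PPL changed places and the rest of the order did not. The longest transcript of DSC2 has 12377 bases, so its length hardly differed between these measures. Whether reads were counted over the same exons was not examined.

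**Figure D3:**
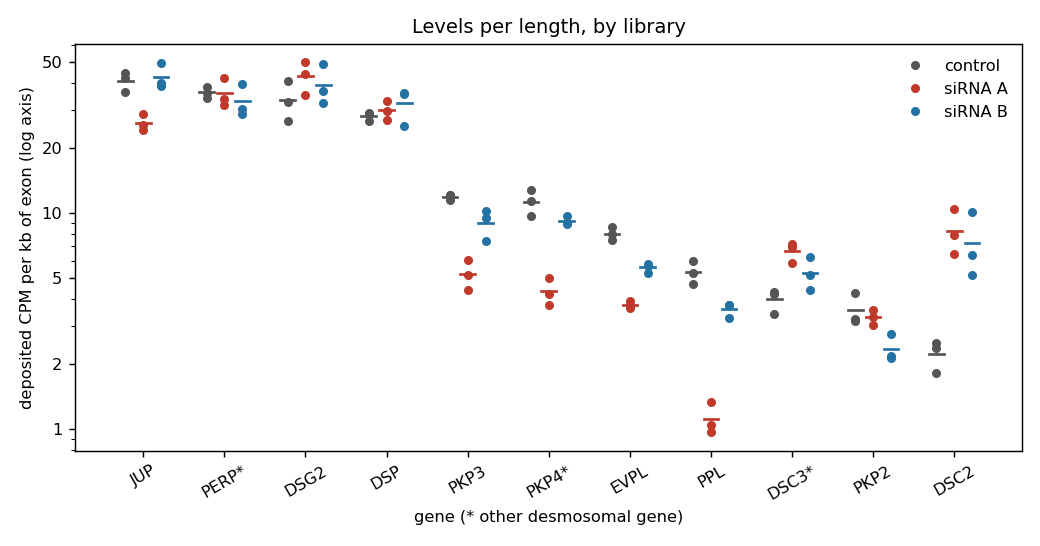
Deposited CPM per kb of annotated exon (vertical log axis) for the 8 genes and for DSC3, PKP4 and PERP (marked with an asterisk), ordered by the control mean, with a point per library and a line for each group mean. DSC2 is the lowest gene in control, at 2.22 per kb, and PPL the lowest in siRNA A, at 1.11.

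Ratios between members within a library do not depend on how libraries are scaled, but their size depends on the exon lengths used. DSC2 made up 34.7, 36.8 and 35.9% of the summed DSC2 and DSC3 level per kb in control, 52.4, 60.1 and 52.4% in siRNA A and 55.4, 61.9 and 54.0% in siRNA B. Per kb, DSC2 was thus above DSC3 in all 6 siRNA libraries. DSG2 over the sum of both desmocollins was 5.38 ± 0.559 in control, 2.88 ± 0.0224 in siRNA A and 3.19 ± 0.207 in siRNA B. These values contain DSC2 and are given without a test. PKP2 over PKP3 was 0.298 ± 0.0462 in control, 0.651 ± 0.154 in siRNA A and 0.270 ± 0.0880 in siRNA B (SD, n = 3 each), with siRNA A wholly above the other groups. JUP over CTNNB1, its close relative at adherens junctions, was 1.60 ± 0.113 in control, 0.977 ± 0.0953 in siRNA A and 3.23 ± 0.781 in siRNA B, with no overlap between any groups. PPL over DSP was 0.189 ± 0.0233, 0.0380 ± 0.0102 and 0.114 ± 0.0291, again with no overlap. EVPL over PPL was 1.52 ± 0.155, 3.43 ± 0.432 and 1.57 ± 0.193, so this pair changed its proportion with siRNA A and overlapped control with siRNA B. An exact two-sided permutation test of 3 libraries against 3 cannot give a p below 0.1, so no ratio could pass 0.05 by that test, and the ratios are given as values.

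As shares of the summed level per kb of the 8 genes, DSC2 stood at 1.66 ± 0.142% in control, 6.80 ± 1.16% in siRNA A and 4.99 ± 1.16% in siRNA B. DSG2 went from 24.9 ± 3.17% in control to 35.5 ± 3.31% in siRNA A and 27.5 ± 2.86% in siRNA B. JUP, the largest share in control at 30.7 ± 2.01%, was at 21.7 ± 1.69% in siRNA A and 30.1 ± 0.862% in siRNA B. PPL and EVPL made up 3.97 ± 0.132% and 6.01 ± 0.444% in control and 0.921 ± 0.1001% and 3.13 ± 0.127% in siRNA A (SD, n = 3 each).

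**Figure D4:**
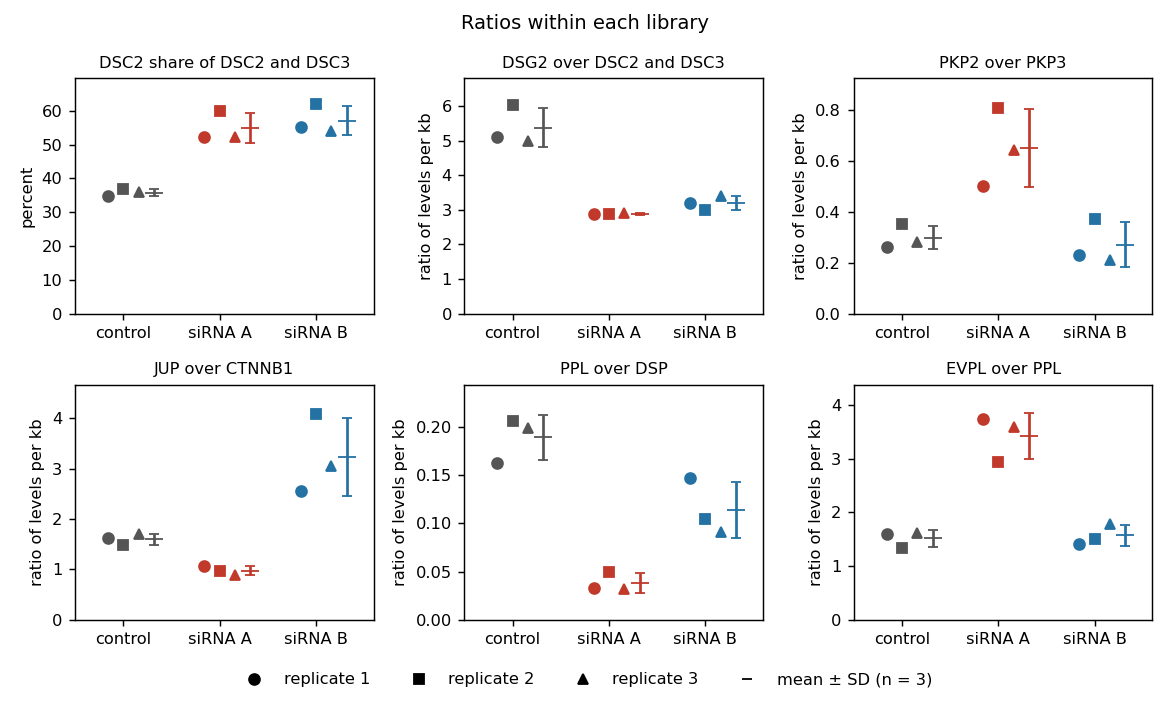
Ratios of levels per kb within each library, from 0 on each vertical axis, with symbols for the replicate number and a bar for mean ± SD (n = 3). The DSC2 share of both desmocollins is above 50% in every siRNA library, and JUP over CTNNB1 separates the 3 groups.

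Across the 9 libraries the members followed DSC2 to different degrees (Pearson's r of log2 values, n = 9 libraries in 3 groups, given as a description). The r with DSC2 was 0.90 for DSG2, 0.75 for DSP, 0.21 for PKP2, 0.03 for JUP, -0.65 for PPL, -0.75 for EVPL and -0.81 for PKP3. After each group mean was taken away, so that what remained was the spread among replicates, r was 0.95 for DSG2, 0.88 for JUP, 0.87 for PKP2, 0.86 for PPL, 0.56 for EVPL, 0.19 for DSP and -0.92 for PKP3. DSC2 was highest in the second replicate of each siRNA group, and these libraries also had the fewest reads, 15566530 and 16340856; the part of depth in this spread was not tested. The genes most like DSC2 over the 9 libraries were P4HA1 (r = 0.995), VEGFA (0.994), FYTTD1 (0.993), PRKAB1 (0.993) and PAFAH1B2 (0.992). Of the 13893 genes tested, 607 other than DSC2 had an r over 0.9. After group means were taken away, r with DSC2 for the genes named was 0.986, 0.948, 0.966, 0.970 and 0.922 in the same order. These genes were picked for their r over the same libraries, so their values do not show how common high values among replicates are. The share of such values over all genes was not computed, so those of the members are not read as particular to them.

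The neighbouring junction systems were described by lists. In each, counts are of genes that passed in limma, and the shares over all genes given above apply. Of 10 genes of plakins and hemidesmosomes, the junctions that anchor keratin to the basement membrane, 3 rose, 2 fell and 5 did not pass with siRNA A, and the numbers were the same with siRNA B. The median of the list was -0.12 with siRNA A and 0.05 with siRNA B. LAMB3, a laminin chain, rose by 1.47 with siRNA A (± 0.16 SE, adjusted p = 2.58e-05 by limma) and 1.34 with siRNA B (± 0.16 SE, adjusted p = 9.16e-05 by limma). The tetraspanin CD151, which overlaps POLR2L, rose by 0.42 and 0.54 (adjusted p = 0.0233 and 0.0104 by limma). ITGB4, the integrin chain of hemidesmosomes, fell by 0.89 and 0.78 (adjusted p = 0.00593 and 0.0192 by limma), and the keratin-binding plakin PLEC fell by 0.55 and 0.57 (adjusted p = 0.00812 and 0.0104 by limma). With totals alone CD151 stood at 0.06 and 0.33 (adjusted p = 0.769 and 0.102 by limma). Among the genes named, the calls lost without 1 library were those of CD151 with siRNA A (without control 2, control 3 or siRNA A 1; 0.34 to 0.37, adjusted p = 0.0779 to 0.0902 by limma) and with siRNA B (without control 3; 0.47, adjusted p = 0.0510 by limma), and of ITGB4 with siRNA B (without control 2, control 3, siRNA B 1 or siRNA B 3; -0.78 to -0.60, adjusted p = 0.0552 to 0.0803 by limma).

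Of 13 keratins, the filaments that desmosomes anchor, 7 were tested. With siRNA A 6 rose and 1 did not pass, with a median of 1.01, and with siRNA B 2 rose, 1 fell and 4 did not pass, with a median of 0.27. KRT8, a main keratin of simple epithelia whose exons overlap those of KRT18, rose by 1.06 and 0.59 (± 0.12 SE for both, adjusted p = 4.27e-05 and 0.00329 by limma). KRT80 rose by 0.83 and 0.72 (adjusted p = 8.96e-04 and 0.00394 by limma). KRT7, which overlaps KRT7-AS, rose by 1.12 with siRNA A (adjusted p = 5.53e-05 by limma), was at 0.02 with siRNA B (adjusted p = 0.908 by limma), and differed between them by 1.09 (adjusted p = 1.27e-04 by limma). KRT15 rose by 0.69 with siRNA A (adjusted p = 2.68e-04 by limma), was at -0.22 with siRNA B (adjusted p = 0.121 by limma), and differed by 0.91 (adjusted p = 9.39e-05 by limma). With totals alone KRT7 was at -0.18 with siRNA B (adjusted p = 0.332 by limma), and KRT15 fell with siRNA B, to -0.43 (adjusted p = 0.0155 by limma). DSP over KRT8, per kb, was 0.215 ± 0.00692 in control, 0.143 ± 0.0319 in siRNA A and 0.190 ± 0.0395 in siRNA B (SD, n = 3 each), with siRNA A wholly below control.

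Of 14 adherens junction genes, 4 rose, 5 fell and 5 did not pass with siRNA A (median 0.12), and 2 rose, 5 fell and 7 did not pass with siRNA B (median -0.33). NECTIN1, an adhesion receptor, fell by 1.45 with siRNA A (adjusted p = 6.70e-06 by limma) and by 0.43 with siRNA B (adjusted p = 0.0204 by limma), a difference of -1.03 (adjusted p = 1.28e-04 by limma). The siRNA B call of NECTIN1 was lost without control 2 or 3 or siRNA B 1 or 3 (-0.43 to -0.37, adjusted p = 0.0562 to 0.0750 by limma). CTNNB1 (beta-catenin), which JUP can stand in for at adherens junctions, rose by 0.43 with siRNA A (± 0.13 SE, adjusted p = 0.0136 by limma) and fell by 0.72 with siRNA B (± 0.13 SE, adjusted p = 0.00120 by limma). The siRNAs differed by 1.15 for CTNNB1 (± 0.13 SE, adjusted p = 6.78e-05 by limma), against -0.55 for JUP. The siRNA A call of CTNNB1 was lost without control 1 or siRNA A 2 (0.33 to 0.34, adjusted p = 0.0542 by limma) and with totals alone (0.06, adjusted p = 0.721 by limma). CTNNA1 (alpha-catenin) rose by 0.28 and 0.29 (adjusted p = 0.0302 and 0.0346 by limma). Both CTNNA1 calls were lost with totals alone (-0.09 and 0.08, adjusted p = 0.472 and 0.586 by limma), with siRNA A also without control 1 or 2 or siRNA A 2 or 3 (0.22 to 0.28, adjusted p = 0.0632 to 0.0933 by limma) and with siRNA B without any 1 control or siRNA B 1 or 3 (0.25 to 0.31, adjusted p = 0.0671 to 0.116 by limma).

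Of 18 tight junction genes 16 were tested, of which 4 rose, 8 fell and 4 did not pass with siRNA A (median -0.25), and 3 rose, 3 fell and 10 did not pass with siRNA B (median -0.17). The membrane proteins OCLN (1.26 and 0.68), CLDN7 (1.05 and 0.63) and F11R (0.58 and 0.38) rose with both siRNAs (adjusted p = 1.66e-04 to 0.0209 by limma). The cytoplasmic plaque protein CGN (-1.04 and -1.22) fell with both (adjusted p = 8.15e-05 and 5.70e-05 by limma). MARVELD3 was at -0.12 with siRNA A (adjusted p = 0.615 by limma) and fell by 0.71 with siRNA B (adjusted p = 0.0126 by limma), a difference of 0.59 (adjusted p = 0.0281 by limma), next to 0.58 for OCLN (adjusted p = 0.0312 by limma). Both differences were lost with totals alone (0.44 and 0.43, adjusted p = 0.0925 and 0.0766 by limma) and without 4 single libraries each (0.45 to 0.59 and 0.42 to 0.59, adjusted p = 0.0692 to 0.120 by limma). Those were siRNA A 1, A 3, B 1 and B 2 for MARVELD3 and siRNA A 2, A 3, B 1 and B 3 for OCLN. With siRNA B, calls were also lost for F11R (without control 2, control 3 or siRNA B 3; 0.28 to 0.36, adjusted p = 0.0754 to 0.113 by limma) and OCLN (without control 1 or siRNA B 2; 0.51 to 0.55, adjusted p = 0.0506 to 0.0612 by limma). With totals alone F11R was at 0.22 and 0.17 (adjusted p = 0.117 and 0.257 by limma) and CLDN7 at 0.42 with siRNA B (adjusted p = 0.0593 by limma).

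**Figure D5:**
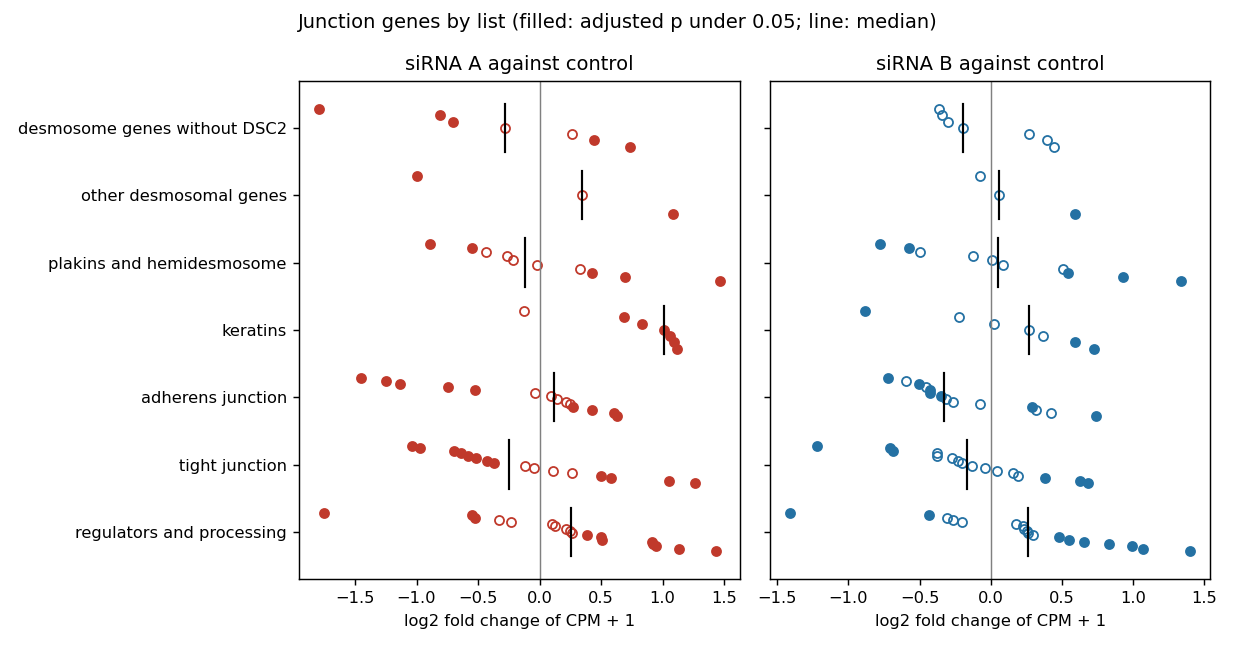
Log2 fold change of CPM + 1 (horizontal axis) of each gene in 7 lists, with siRNA A in the left panel and siRNA B in the right, filled points for an adjusted p under 0.05 and black lines for list medians; DSC2 is left out. Keratins lie mostly to the right with siRNA A, at a median of 1.01, and the desmosome genes fall on both sides of 0.

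Of 22 genes listed as transcription factors of epithelia, or as enzymes and other proteins known to act on desmosomes, 18 were tested. With siRNA A 8 rose and 3 fell, and with siRNA B 7 rose and 2 fell. ELF3, an epithelial transcription factor with an antisense partner, rose by 1.43 and 1.40 (± 0.28 SE for both, adjusted p = 0.00117 and 0.00244 by limma). ADAM17, a protease known to shed DSG2, rose by 1.13 and 0.83 (± 0.11 SE for both, adjusted p = 1.35e-05 and 1.96e-04 by limma). The related factor EHF fell by 1.75 and 1.41 (adjusted p = 2.26e-05 and 1.84e-04 by limma), and CDX2, the intestinal homeobox factor, by 0.52 and 0.43 (adjusted p = 0.00413 and 0.0182 by limma). SNAI2, a repressor that binds the E-box, rose by 0.91 and 1.07 (adjusted p = 0.0490 and 0.0366 by limma) from levels of only 0.239 to 3.78 CPM. In siRNA A it stood at 0.851, 3.78 and 0.643 CPM. Without siRNA A 2, siRNA B 1 or siRNA B 2 it was below the level filter and had no fit, and the plain difference of group means, an alternative chosen after seeing the data, was 0.43 for siRNA A without its second replicate and 0.78 for siRNA B without its second. Its calls were lost without any 1 control (0.87 to 0.93 and 1.02 to 1.08, adjusted p = 0.0784 to 0.104 by limma) and with a pseudocount of 5 (0.32 and 0.36, adjusted p = 0.0902 and 0.0833 by limma), and with siRNA A also with totals alone (0.76, adjusted p = 0.0566 by limma) and with no filter (0.91, adjusted p = 0.0590 by limma). GRHL1, a grainyhead factor of epithelia, fell by 0.55 with siRNA A (adjusted p = 0.00526 by limma) and was at 0.26 with siRNA B (adjusted p = 0.153 by limma), a difference of -0.81 (adjusted p = 8.33e-04 by limma). PRKCA, a kinase that acts on desmosomal adhesion, rose by 0.51 with siRNA A (adjusted p = 0.0463 by limma), was at -0.20 with siRNA B (adjusted p = 0.458 by limma) and differed by 0.71 (adjusted p = 0.0142 by limma). The siRNA A call of PRKCA was lost without control 1, control 3, siRNA A 2, siRNA A 3 or siRNA B 1 (0.34 to 0.50, adjusted p = 0.0626 to 0.173 by limma), with totals alone (0.15, adjusted p = 0.533 by limma) and with no filter or a filter at 5 CPM (0.51 and 0.47, adjusted p = 0.0590 and 0.0614 by limma), and its difference without siRNA A 2 or siRNA B 3 (0.56 to 0.60, adjusted p = 0.0514 to 0.0590 by limma). The siRNA B call of CDX2 was lost without control 1, control 3 or siRNA B 3 (-0.43 to -0.37, adjusted p = 0.0503 to 0.0725 by limma).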

How the data were processed

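Oligo-dT-selected RNA of HCT116 cells was sequenced from 1 end over 50 bases. The authors deposited CPM, the count of a gene relative to all reads in its library. The submitters' notes name TopHat2, HTSeq and GRCh37 (hg19), without roles, and the use of strand was not given in the sources used here. Every CPM value was a whole multiple of 1 read (100% of values, tolerance 0.01 reads), so reads were recovered. The replicates were biological according to the study's methods. No pair agreed within sampling noise (chi-square per degree of freedom at least 12.6).

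The main test, planned for CPM, was limma 3.58.1 (R 4.3.3) with a mean-variance trend on log2(CPM + 1) after TMM scaling (edgeR 4.0.16). Fold changes on this scale understate those of low genes. The 9 libraries entered 1 model with a mean per group. Genes with at least 1 CPM in 3 libraries were tested (13893, 90.5% of rows), with Benjamini-Hochberg adjustment over all of them at 0.05, and SEs are the moderated ones. The fit was run on simulated data in which a small share of genes changed, with siRNA A only. Far more genes were called in the real libraries, so that run does not show how the fit performs on them. Mean TMM factors were 1.14 (control), 0.886 (siRNA A) and 0.988 (siRNA B). Totals alone moved the median log2 change of all genes from -0.02 to -0.34 (siRNA A) and from 0.0043 to -0.18 (siRNA B), so a change with totals alone is to be read against those values. Alternatives were DESeq2 size factors, other pseudocounts and filters, edgeR and DESeq2 1.42.0 on recovered reads, the 2 groups alone, a replicate block and leaving out each library. Deviations from group means of same-numbered libraries correlated at 0.65, 0.41 and 0.13 between control and siRNA A, so these numbers were taken to pair those samples from the data, not the labels. The main test does not use this pairing. The replicate block does, and with it PKP2 and PERP passed with siRNA A (adjusted p = 0.0322 and 0.0184 by limma), which they did not in the main test. Between control and siRNA B the correlations were 0.17, 0.44 and -0.39, and between the siRNAs 0.20, 0.44 and 0.02, which does not pair those groups. The highest values there were for unlike numbers, 0.68 for siRNA B 3 with control 1 and 0.59 for siRNA A 1 with siRNA B 3. The block used the numbers over all 9 libraries, siRNA B included, so its calls rest in part on numbers that do not pair.

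Coordinates, overlaps and exon lengths are from GENCODE lifted to GRCh37. The annotation used for counting may differ from it, so levels per kb, ratios and shares rest on these lengths. The members and lists were chosen with earlier results of these data known. Genes outside the set were named by rule: the other desmosomal genes, the 5 genes with the highest r with DSC2, and in each list up to 3 that rose and 3 that fell with both siRNAs and up to 2 with the largest called difference between siRNAs. Some genes that this rule names are not reported here. Counts carry no molecular identifiers, so depth bounds counting error only.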

Additional observations from a re-analysis of the deposited data

Results flagged for a closer look

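The change against control differed between the siRNAs for 5 members, by a test of the difference itself (siRNA A minus siRNA B, limma, adjusted over all genes). Over all genes 17.6% were higher and 19.5% lower by the same test. PPL differed by -1.44 (adjusted p = 4.37e-05 in limma) and PKP3 by -0.62 (adjusted p = 0.00328 in limma). Both were lower with siRNA A in 3 of 3 libraries, where the siRNA libraries of 47.6% of all genes did not overlap. PKP2 differed by 0.63 (adjusted p = 0.00603 in limma) and was the 1 member higher with siRNA A than with siRNA B by this test. JUP differed by -0.55 (adjusted p = 0.0104 in limma), with neither siRNA passing against control. EVPL differed by -0.40 (adjusted p = 0.0139 in limma). No cause of these differences was tested.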

How the results depend on the processing

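Of 456 values recomputed for the 8 members over 19 alternatives, 422 stayed the same, 22 passed the threshold newly, 7 lost it, 4 turned and 1 moved beyond the replicate spread without a test. The same means an unchanged direction and side of the threshold. For DSC2 against control, which has no test, it means an unchanged direction and a shift within the replicate SD. DSC2 between the siRNAs was sorted in these counts by the side of the threshold. It makes up 1 of the 22, at 0.68 without the second replicate of siRNA B. That value is not read as a call, because the set was chosen on DSC2 in these libraries. The 1 value that moved was DSC2 with siRNA A with totals alone, at 1.84. DSC2 otherwise stayed between 1.99 and 2.37 with siRNA A and between 1.52 and 2.03 with siRNA B. With totals alone DSG2 and DSP lost their siRNA A calls and JUP passed as lower with siRNA A. PKP2, PKP3, PPL and EVPL then passed as lower with siRNA B. The share of all genes called with totals alone was not computed, and their median was -0.34 with siRNA A and -0.18 with siRNA B. Values turned with totals alone for PKP2 with siRNA A (-0.10), DSP between siRNAs (-0.10), PERP with siRNA A (-0.023) and siRNA B (-0.15), CTNNA1 with siRNA A (-0.092) and KRT7 with siRNA B (-0.18). EVPL passed as lower with siRNA B under a filter at 5 CPM. Both edgeR and DESeq2 called DSP higher and EVPL lower with siRNA B, at the shares of all genes given above. The replicate block, which rests on numbers that do not pair siRNA B with the other groups, gave 2 members higher (DSG2 and DSP) and 3 lower (PKP2, PPL and EVPL) with siRNA B, where 19.9% and 21.8% of all genes passed, and 2 higher between siRNAs (DSG2 and PKP2), where 21.5% did. Leaving out 1 library gave 1 to 2 members higher with siRNA A, 0 to 1 higher and 0 to 2 lower with siRNA B, and 1 to 2 higher between siRNAs. The shares of all genes called in those settings were not computed, so these counts are not read as a result about the members. Under the same settings DSP between siRNAs ran from -0.14 to 0.17, MARVELD3 with siRNA A from -0.27 to 0.032, KRT7 with siRNA B from -0.086 to 0.078 and PERP with siRNA B from -0.11 to 0.15. With 3 libraries a group the interval of the log2 change of a member other than DSC2 spanned 0.48 to 0.86 with either siRNA. The cause of these shifts was not tested.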
